A study of Bubalus bubalis with 12 samples.

Results

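Late and early regression of the corpus luteum (CL) were compared directly, 18 h against 6 h after cloprostenol, which mimics prostaglandin F2α (PGF2α) and starts regression. The members were the 6 arrays whose titles give 18 h or 6 h after treatment, 3 of each, out of 12 arrays in the series. All were buffalo cows (Bubalus bubalis) with a history of normal cycles that received 500 µg of cloprostenol intramuscularly on day 11 of the estrous cycle, and the labels give 1 animal per array. The other arrays, 4 of untreated animals of the same cycle day (0 h) and 2 at 3 h, took no part in the test and are given only as levels beside it. RNA of whole CL was measured on Affymetrix bovine arrays, which carry cattle probes, and values are log2 units after robust multichip averaging (RMA), so that 1 unit is a 2-fold difference.

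The CL is the short-lived gland left by ovulation, and it secretes progesterone, which large and small steroidogenic cells make from cholesterol. PGF2α acts through PTGFR, a Gq-coupled receptor that is abundant on large luteal cells, and raises intracellular calcium and protein kinase C activity. Progesterone secretion falls first (functional luteolysis), and breakdown of the vessels, entry of immune cells and loss of luteal cells follow (structural luteolysis). Arrays taken at an earlier and a later hour after the injection thus bear on how transcript levels differ along that course.

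The tissue label fitted the markers of steroidogenic luteal cells at both times. STAR, which moves cholesterol into the mitochondrion, stood at 14.66 ± 0.04 at 6 h and 14.33 ± 0.22 at 18 h (mean ± SD, n = 3 each), and CYP11A1, the side-chain cleavage enzyme, at 14.05 ± 0.09 and 13.94 ± 0.30. Of the variance among the 6 arrays, 40.5% lay on the first principal component, which put the 6 h arrays between -31.6 and -10.1 and the 18 h arrays between 17.9 and 24.7. The array of 6 h replicate 1 was the nearest of its group to the 18 h arrays. Pairs of arrays within a time had 220 to 429 probe sets more than 2-fold apart, and pairs across times 454 to 772.

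Over 24016 probe sets, 116 were called (limma, adjusted p under 0.05), 43 higher at 18 h and 73 lower, which is 0.483% of all, 0.179% higher and 0.304% lower. At least 2-fold differences were found in 69 of them (0.287%), 23 higher (0.0958%) and 46 lower (0.192%). Read at 1 probe set per gene, 57 of 9155 genes were called (0.623%), 24 higher (0.262%) and 33 lower (0.36%). For all 57 the 3 arrays of one time lay apart from the 3 of the other, as they did for 23% of all genes tested. For 3 arrays against 3 such a gap arises by chance at a rate of 0.1. An unadjusted p under 0.05 was reached by 3473 probe sets (14.5%), 1874 higher (7.8%) and 1599 lower (6.66%). By chance 1200.8 are expected, so part of the 3473 may lean by chance. The 116 called probe sets were a small part of the 3473. Over the 9155 genes, 10.1% were higher and 7.81% lower at an unadjusted p under 0.05, and 13.3% were higher and 9.68% lower without overlap, and the counts of each list below are to be read against these shares. An exact permutation test of 3 arrays against 3 cannot go below p = 0.1, and for that reason no single gene was tested that way. In whole tissue, fewer cells of a type and less RNA per cell cannot be told apart, and this holds for every gene below.

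The number of called probe sets depended on single animals. Without 18 h replicate 1 it was 0, with a smallest adjusted p of 0.0557 and 2902 probe sets at an unadjusted p under 0.05. Leaving out 6 h replicate 2 gave 10, 6 h replicate 3 gave 36 and 6 h replicate 1 gave 185, while 18 h replicate 2 gave 49 and 18 h replicate 3 gave 64. The direction of all 116 was the same in each of these 6 fits. That was fixed in advance, because for all 116 probe sets the 6 h and 18 h arrays did not overlap. No gene named below as called was thus called without 18 h replicate 1. ADCY2, MTTP and MARK1 were called in the 5 other fits, PARM1 and MXRA8 in 4, and JAKMIP1, ABCC3, OGN and EPAS1 in 0.

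The genes that rose between 6 h and 18 h included TMEM117, MTURN, ANKRD1, ADCY2 and PARM1. ADCY2, an adenylyl cyclase that makes cyclic AMP, stood at 4.95, 5.14 and 4.99 on the 6 h arrays and at 6.82, 6.60 and 6.68 on the 18 h arrays. Both groups were tight and more than 1 unit apart, and the rise was 1.67 ± 0.10 (log2 difference ± SE, adjusted p = 0.00748). TMEM117, a transmembrane protein gene, was at 7.75, 7.15 and 7.26 at 6 h and at 9.91, 9.31 and 9.06 at 18 h. Its rise of 2.04 ± 0.24 (4.12-fold, adjusted p = 0.0218) was the largest of a called gene.

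ANKRD1, an ankyrin repeat protein known from stretched heart muscle and as a target of YAP, was at 11.94, 11.40 and 11.08 at 6 h and at 13.47, 13.28 and 12.92 at 18 h. The lowest 18 h array lay about 1 unit above the highest 6 h array, and the rise was 3.37-fold (1.75 ± 0.23, adjusted p = 0.0328). PARM1, a mucin-like membrane protein, was at 8.08, 8.18 and 7.84 against 9.91, 9.39 and 9.78 (1.66 ± 0.16, adjusted p = 0.0138). MTURN, a regulator of neural progenitor differentiation, rose by 1.81 ± 0.19 (adjusted p = 0.0185), or by 1.19 as the mean of its probe sets. CCDC80, a secreted matrix protein, rose by 1.52 ± 0.20 and MXRA8, an adhesion protein of the immunoglobulin superfamily, by 1.37 ± 0.11 (adjusted p = 0.00944). MXRA8 was at 8.87, 8.73 and 8.81 at 6 h and at 10.00, 10.19 and 10.33 at 18 h, with no overlap and little spread.

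The other large rises included RASL11B, a small GTPase of the RAS family (1.43 ± 0.15), PPFIBP1, a liprin (1.37 ± 0.21), and STMN1, which destabilises microtubules (1.32 ± 0.17). The linker histone H1-2 rose by 1.22 ± 0.13 and IFI30, a thiol reductase of the lysosome that prepares antigens for presentation, by 1.18 ± 0.18. The adjusted p of these 5 lay between 0.016 and 0.0489. The 12 other genes that rose did so by 0.62 to 1.09, and among them were the carbohydrate-binding protein LGALS3 (galectin 3), the calcium-binding protein S100A2, the copper transporter SLC31A2 and the serpin SERPINB8.

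Genes that fell between 6 h and 18 h included the PGF2α receptor, a lipid transfer protein and a transmembrane collagen. RNF39, a RING finger protein, stood at 9.44, 9.51 and 10.58 at 6 h and at 7.52, 7.25 and 7.84 at 18 h. Its fall of 2.31 on the log2 scale (SE 0.31, adjusted p = 0.0341) was the largest of a called gene. However, 6 h replicate 3 lay more than 1 unit above the others of its time. MTTP, which loads lipid onto lipoproteins that carry apolipoprotein B, was at 8.27, 7.90 and 8.20 against 5.95, 6.08 and 6.39, and fell 3.95-fold (-1.98 ± 0.15, adjusted p = 0.00784).

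COL13A1, a collagen anchored in the plasma membrane, was at 7.82, 8.91 and 8.82 at 6 h and at 6.47, 6.26 and 6.71 at 18 h (-2.04 ± 0.28, adjusted p = 0.0385). Its lowest 6 h value was on 6 h replicate 1. TC2N, a protein with C2 domains, was at 10.24, 9.82 and 9.85 against 7.84, 8.32 and 8.55 (-1.73 ± 0.20, adjusted p = 0.0203), and JAKMIP1, which binds microtubules and JAK kinases, fell by 1.89 on the log2 scale. MARK1, a kinase that phosphorylates microtubule-associated proteins, was at 11.32, 11.54 and 11.21 at 6 h and at 9.87, 9.65 and 9.88 at 18 h. The times were far apart beside their spread (-1.56 ± 0.12, adjusted p = 0.00784), and its other probe set fell too.

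Among the 12 largest falls of genes with a characterised symbol were also UAP1, which makes UDP-N-acetylglucosamine, TDH, a mitochondrial threonine dehydrogenase, and ABCC3, which exports organic anions. UAP1 was at 12.62, 12.81 and 12.58 at 6 h and at 11.21, 11.32 and 11.61 at 18 h, a fall of 2.44-fold (-1.29 ± 0.13, adjusted p = 0.0157), and all 3 of its probe sets were called lower. TDH fell by 1.64 and ABCC3 by 1.48 on the log2 scale. The others were the calmodulin-like CALML4 (-1.41 ± 0.20), SHROOM3, an actin-binding protein of epithelial cell shape (-1.40 ± 0.20), and BAMBI, a decoy receptor of the TGFβ family (-1.36 ± 0.19). The 21 other genes that fell did so by between 0.68 and 1.36 on the log2 scale, and the one at 1.36, a larger fall than that of UAP1, was the uncharacterised locus LOC618541.

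**Figure D1:**
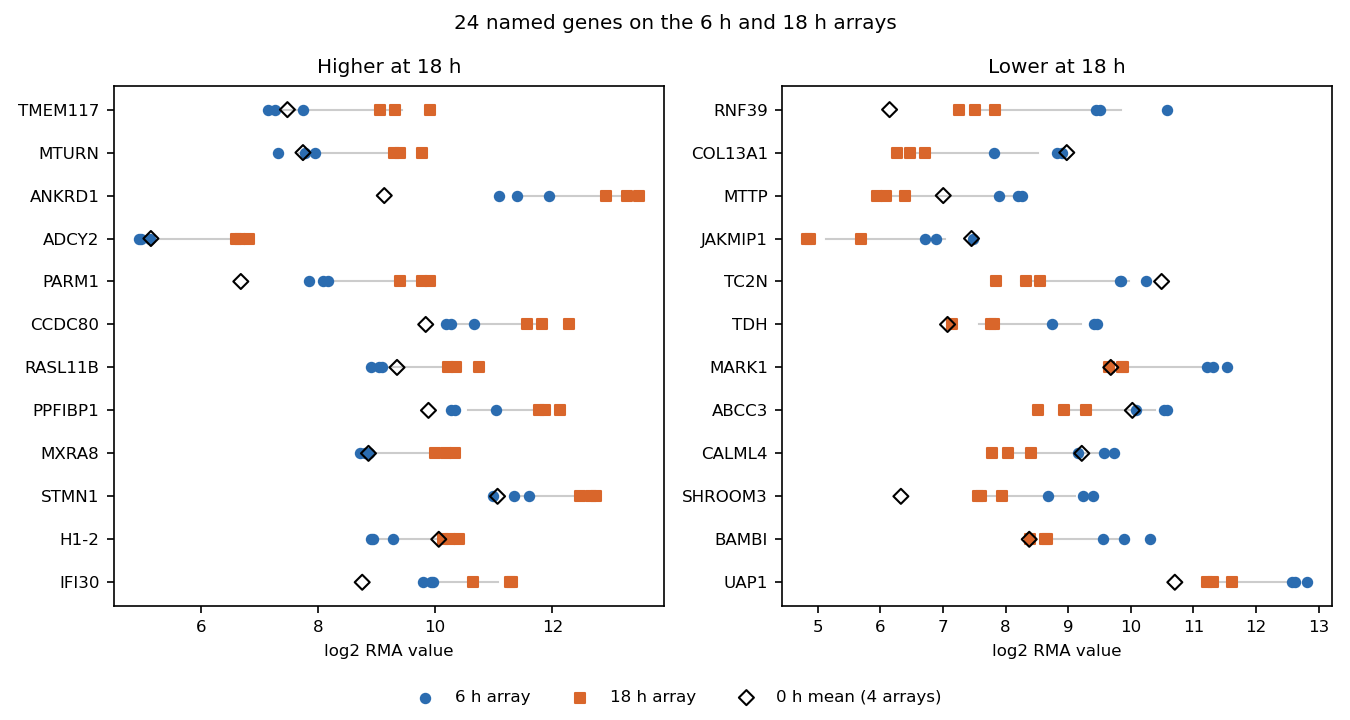
Log2 RMA values (horizontal axis) of the 12 largest rises (left) and the 12 largest falls (right) among called genes, uncharacterised loci passed over. Circles are the 3 arrays at 6 h, squares the 3 at 18 h and open diamonds the mean of the 4 untreated arrays. In each row circles and squares do not overlap, as in ADCY2 with 6 h arrays at 4.95 to 5.14 and 18 h arrays at 6.60 to 6.82, while the diamonds lie beyond the 6 h arrays, between the times or beyond the 18 h arrays.

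Set beside the levels in untreated CL, the called genes followed different courses, which are given as a description because the 6 h level enters both steps. Of the 24 genes that rose, 14 had a mean at 0 h below that at 6 h, so that the later rise went further from the untreated level (33.7% of all genes that were higher at 18 h lay so). ANKRD1 averaged 9.13 at 0 h, 11.47 at 6 h and 13.22 at 18 h, and PARM1 6.68, 8.03 and 9.69. For 9 others (24.6% of all genes that were higher lay so), among them TMEM117, MTURN, ADCY2, RASL11B and MXRA8, the 0 h mean lay between those at 6 h and 18 h and mostly near the 6 h level, as for ADCY2 at 5.15 against 5.02 and 6.70. DLG3, a scaffold protein of cell junctions, was the 1 gene whose 0 h mean (9.22) lay above both 6 h (8.19) and 18 h (8.90), as did that of 41.8% of all genes that were higher.

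Of the 33 genes that fell, 14 had a 0 h mean below that at 18 h, so that they were high at 6 h and partly back at 18 h (31.8% of all genes that were lower at 18 h lay so). MARK1 averaged 9.68 at 0 h, 11.35 at 6 h and 9.80 at 18 h, and UAP1 10.70, 12.67 and 11.38. ATP2A2, the calcium pump SERCA2 of the endoplasmic reticulum, went from 10.44 at 0 h to 12.50 at 6 h and 11.44 at 18 h, and CRY1, a repressor of the circadian clock, from 7.35 to 8.21 and 7.38. In 12 others (49.2% of all genes that were lower lay so), among them PTGFR, TC2N, COL13A1, JAKMIP1, OGN and AOC3, the 0 h mean lay above that at 6 h. The later fall of these means went further from the untreated level. No margin was set, and the 0 h and 6 h means could be close, as for RWDD4 (9.65 and 9.63). For COL13A1 the 6 h arrays at 8.91 and 8.82 lay within the 0 h range (8.59 to 9.29), and replicate 1 (7.82) below it. AOC3, an amine oxidase that also serves as a vascular adhesion protein, averaged 10.43, 9.51 and 8.32. The 0 h mean of 7 genes, EPAS1 and CD83 among them, lay between both times, as did that of 19% of all genes that were lower.

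The untreated and 3 h arrays were uneven, which bears on how these courses read. At 3 h, replicate 1 stood at 6.98 and replicate 3 at 11.38 for ANKRD1, and at 10.32 and 12.46 for UAP1. Replicate 3 at 0 h lay apart from the other untreated arrays in some immune genes. The mean level of the interferon and antigen presentation list was 10.79 on it against 9.23 to 9.31. In some other genes, chosen after their values were seen, replicates 1 and 4 at 0 h stood apart from 2 and 3. IGFBP3 was at 9.74 and 9.59 on replicates 1 and 4 and at 12.03 and 12.18 on 2 and 3. THBS1 was at 11.58 and 11.64 against 13.12 and 12.96, and EDN1 at 7.92 and 8.01 against 9.40 and 9.59. The 0 h mean of such genes lies between the 2 pairs.

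**Figure D2:**
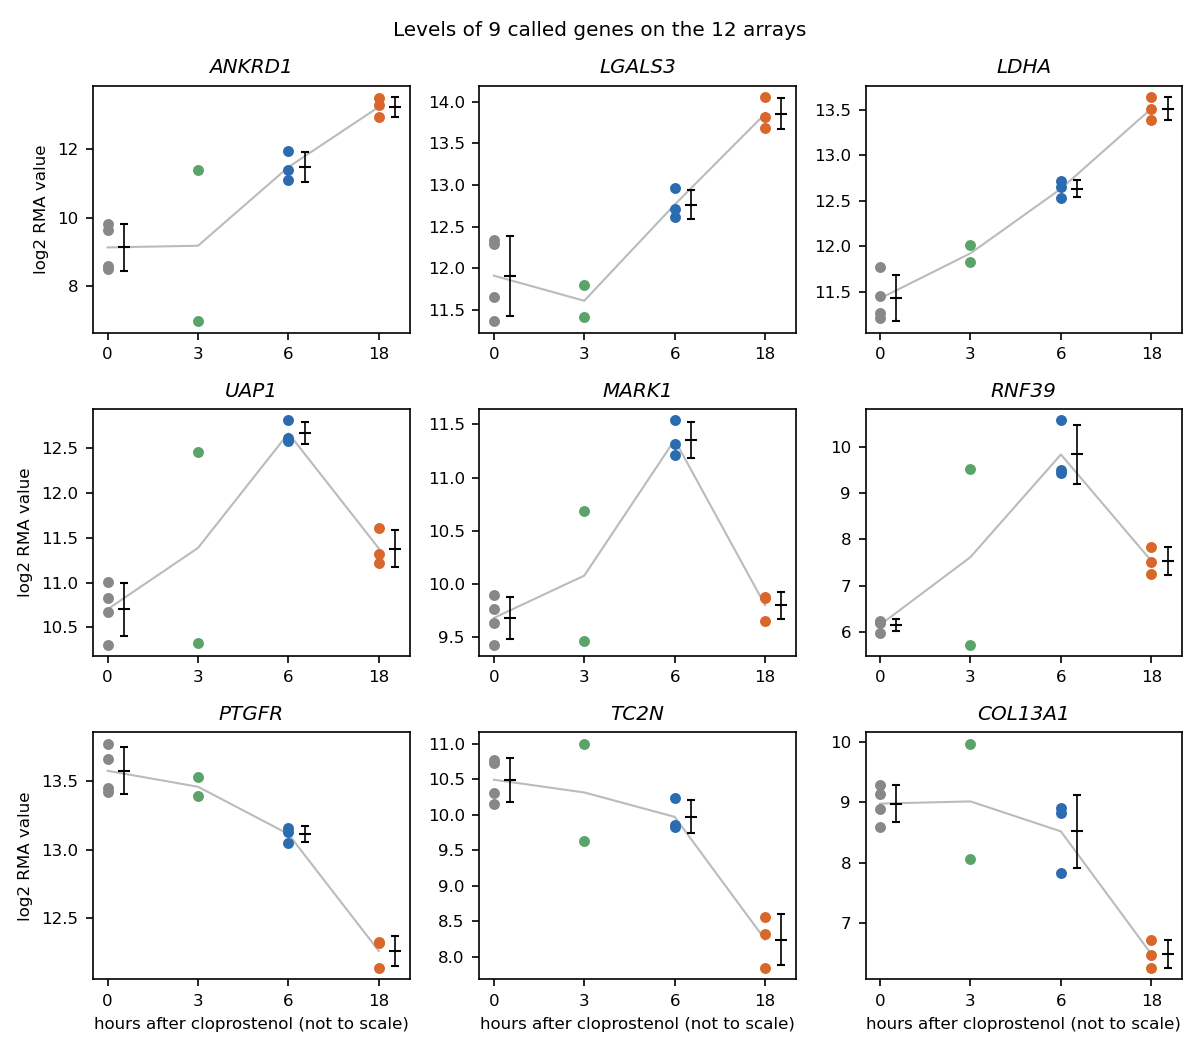
Log2 RMA values (vertical axes, which differ between panels) of 9 called genes by array at the 4 times after cloprostenol (horizontal axis, evenly spaced). Each point is 1 array, bars give mean ± SD where a time had over 2 arrays, and grey lines join the means. ANKRD1, LGALS3 and LDHA climbed to 18 h, UAP1, MARK1 and RNF39 were highest at 6 h, and PTGFR, TC2N and COL13A1 were lowest at 18 h, with the 3 h arrays far apart in ANKRD1, UAP1 and RNF39.

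Among luteal hormone receptors and peptides, PTGFR was the 1 of 24 measured members called, and it fell. PTGFR stood at 13.13, 13.16 and 13.05 at 6 h and at 12.14, 12.33 and 12.32 at 18 h. All 18 h arrays were lower by more than 0.7, and the fall was 1.80-fold (-0.85 ± 0.10, adjusted p = 0.0193). It was called at each of its 3 probe sets, with differences between -1.39 and -0.85, but in only 1 of the 6 fits without 1 array. LHCGR, the receptor of the luteotropic hormone LH, was at 9.46, 11.04 and 10.61 at 6 h and at 8.19, 10.15 and 7.67 at 18 h. Its difference was larger than that of PTGFR (-1.70 ± 0.65), but the 18 h arrays spread over more than 2 units and overlapped those at 6 h, and it was not called (adjusted p = 0.29, 95% interval -3.22 to -0.18). PTGER2, a prostaglandin E2 receptor, was at -1.03 ± 0.24 (adjusted p = 0.109) and PGRMC1, a progesterone-binding membrane protein, at 0.47 ± 0.16. The median of the list was -0.04, beside 0.02 over all 9155 genes.

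No steroidogenic gene passed the test. Of 21 measured genes of the steroidogenesis list 0 were called, 3 were higher and 6 lower at an unadjusted p under 0.05 (10.1% and 7.81% of all genes), and the median was -0.09. HSD3B1, which turns pregnenolone into progesterone, was at 14.03, 14.57 and 14.56 at 6 h and at 13.42, 13.29 and 13.85 at 18 h. The times did not overlap (-0.87 ± 0.20, adjusted p = 0.107). FDX1, the electron donor of CYP11A1, was at -0.62 ± 0.15 (adjusted p = 0.12), GATA6, a transcription factor of steroidogenic cells, at -0.74 ± 0.23, and NR5A2, a nuclear receptor that activates steroidogenic genes, at -0.84 ± 0.19 (adjusted p = 0.112). Its relative NR5A1 was at 0.27 ± 0.13, STAR at -0.33 ± 0.12 (adjusted p = 0.282) and CYP11A1 at -0.11 ± 0.15 (95% interval -0.47 to 0.25).

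The enzymes of sterol synthesis, which supply luteal cells with cholesterol of their own, had the lowest median of the 31 lists (-0.43). Of 20 measured members 0 were called, 9 were lower and 0 higher at an unadjusted p under 0.05, and 8 were lower without overlap (9.68% of all genes were). SQLE, squalene epoxidase, was at 13.15, 13.12 and 13.46 at 6 h and at 12.54, 12.44 and 12.56 at 18 h. That difference of -0.73 ± 0.12 was just outside the threshold (adjusted p = 0.0539). NSDHL and EBP, later enzymes of the pathway, were at -0.56 ± 0.12 and -0.63 ± 0.17, and INSIG1, which holds the sterol sensor SCAP in the endoplasmic reticulum, at -0.85 ± 0.21. The mean level of the list was 10.82, 11.08 and 11.29 at 6 h and 10.63, 10.91 and 10.59 at 18 h, so the arrays overlapped in it. The median kept its sign in all 15 alternatives (-0.53 to -0.23), but some of these change only the error or the adjustment and cannot move it.

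In the list of cholesterol uptake, release and efflux, 0 of 20 measured members were called and the median was 0.01. OLR1, a scavenger receptor for oxidised lipoprotein, was at 11.21, 10.59 and 9.89 at 6 h and at 9.04, 8.65 and 8.76 at 18 h. Although it differed by 3.36-fold without overlap, it was not called (-1.75 ± 0.30, adjusted p = 0.0595). LIPE, hormone-sensitive lipase, was at -0.56 ± 0.12, NPC2, which carries cholesterol out of lysosomes, at 0.36 ± 0.09 and APOE at 0.42 ± 0.18, with adjusted p from 0.0912 to 0.338.

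Immediate early genes, whose transcription starts without new protein synthesis, were mostly lower at 18 h than at 6 h, none past the threshold. Of 30 measured members 0 were called, 14 were lower and 1 higher at an unadjusted p under 0.05 (7.81% and 10.1% of all genes), 12 were lower without overlap, and the median was -0.40. SRF, the serum response factor, was at 8.65, 9.06 and 8.61 at 6 h and at 7.95, 7.35 and 7.60 at 18 h (-1.14 ± 0.18, adjusted p = 0.0552). DUSP1, a phosphatase that switches off MAP kinases, was at 12.53, 12.99 and 12.80 against 12.01, 11.56 and 11.82 (-0.98 ± 0.16, adjusted p = 0.0552). ZFP36, which speeds the decay of cytokine messages, was at -1.11 ± 0.19 and the matricellular protein CCN1 at -0.82 ± 0.18. FOSB had the lowest value of the list (-1.92 ± 0.43) and IER3 the highest (0.64 ± 0.27), both chosen after their values were seen.

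The better known members did not move together. EGR1, a zinc finger factor, was at -0.62 ± 0.19 without overlap, NR4A1, an orphan nuclear receptor, at -0.51 ± 0.27 with overlap, and FOS at -0.03 ± 0.24. ATF3, a stress-induced repressor, was at 11.37, 11.78 and 9.97 at 6 h and at 11.10, 10.43 and 11.51 at 18 h. The values at 18 h lay within the range of those at 6 h, and the interval of its difference was wide because 1 array at 6 h was low (-0.03 ± 0.47).

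In the list of MAP kinase and calcium signalling, RASL11B was the 1 called of 47 measured members, 4 were higher and 9 lower at an unadjusted p under 0.05, and the median was -0.10. PDE8A, which degrades cyclic AMP, was at -0.99 ± 0.16 (adjusted p = 0.0579) and SPRY2, a feedback inhibitor of receptor tyrosine kinases, at -1.31 ± 0.25 (adjusted p = 0.0712). Heat shock and unfolded protein genes had 0 of 43 called, 9 lower and 0 higher at an unadjusted p under 0.05, and a median of -0.08. The chaperones DNAJA1 (-0.79 ± 0.15, adjusted p = 0.067), HSPA2 (-0.51 ± 0.14), DNAJB6 (-0.36 ± 0.12) and HSPA5 (-0.37 ± 0.12) were lower without overlap, and HSPH1 stood at 12.17 ± 0.14 and 11.74 ± 0.25 (-0.43 ± 0.15, adjusted p = 0.24).

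Genes for ribosome making and translation factors had 0 of 48 called, 12 lower and 1 higher at an unadjusted p under 0.05 (7.81% and 10.1% of all genes), 18 lower without overlap (9.68% of all genes) and a median of -0.08. WDR43 and the pseudouridine synthase DKC1 were at -0.50 ± 0.12 and -0.43 ± 0.13, FBL, the methyltransferase fibrillarin, at -0.44 ± 0.13 and the cap-binding factor EIF4E at -0.38 ± 0.10. Cytosolic ribosomal proteins themselves were near level, with 0 of 61 called, 0 higher and 2 lower at an unadjusted p under 0.05 and a median of 0.00. RPS19 (-0.35 ± 0.12), RPL37 (-0.34 ± 0.13), RPS9 (0.13 ± 0.09) and RPL7 (-0.11 ± 0.09) had the lowest p among them.

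**Figure D3:**
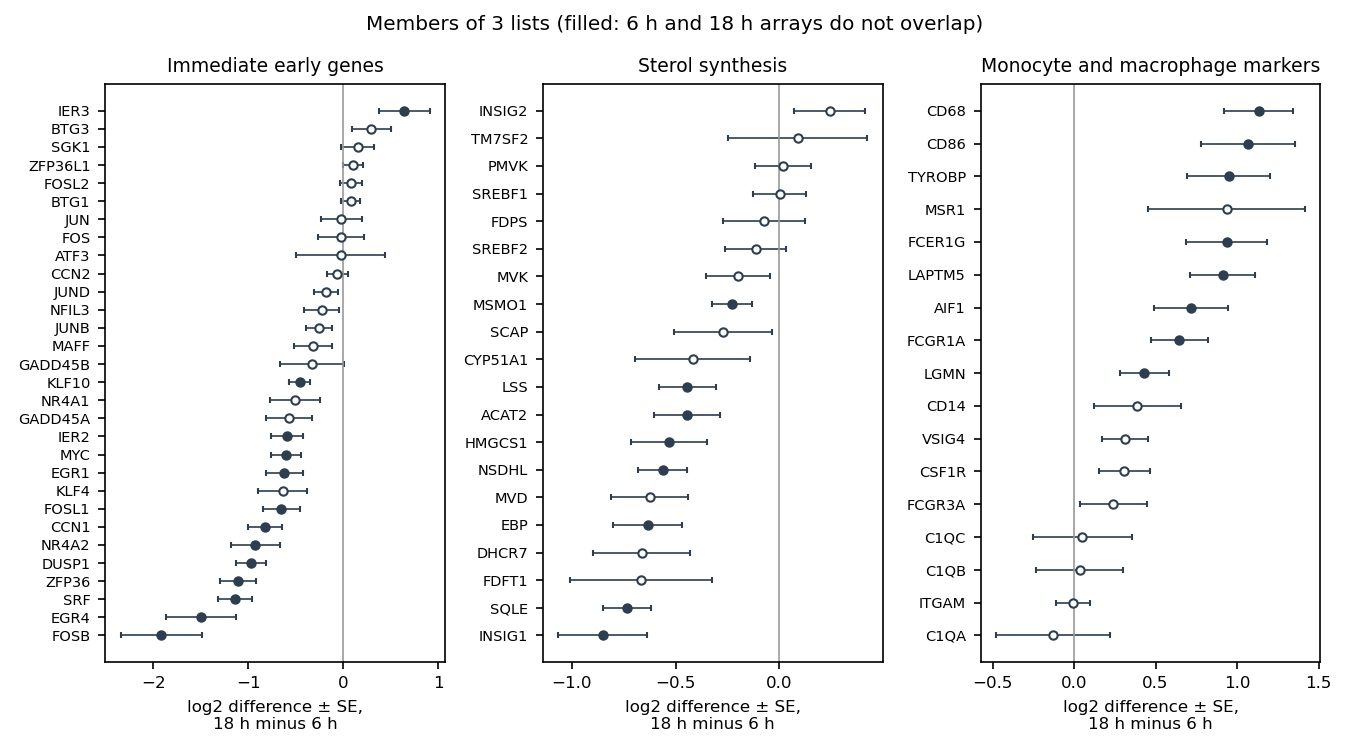
Log2 difference ± SE (horizontal axes, 18 h minus 6 h, scales differ) of each measured member of the immediate early genes, the sterol synthesis genes and the monocyte and macrophage markers. Filled points are members whose 6 h and 18 h arrays do not overlap. Most points of the first 2 panels lie left of 0 (list medians -0.40 and -0.43) and most of the third right of it (0.43), and none of the members was called.

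Genes of the lysosome and of autophagy, which break down proteins and organelles, were mostly higher at 18 h, again without a call. Of 58 measured members 0 were called, 21 were higher and 1 lower at an unadjusted p under 0.05 (10.1% and 7.81% of all genes), and 23 were higher and 2 lower without overlap (13.3% and 9.68%). The mean level of the list was 10.21, 10.24 and 10.20 at 6 h and 10.43, 10.40 and 10.49 at 18 h, and 10.16 to 10.25 at 0 h. The 18 h arrays thus stood above all others in the list mean, by little. CTSZ, a lysosomal carboxypeptidase, was at 11.33, 11.31 and 11.38 against 12.39, 12.15 and 12.98 (1.17 ± 0.20, adjusted p = 0.0593), and ATP6V0B, a subunit of the proton pump, at 11.13, 11.22 and 11.11 against 11.80, 11.79 and 11.64 (0.59 ± 0.09, adjusted p = 0.0539). MCOLN1, the calcium channel of lysosomes, was at 0.74 ± 0.12 and the alpha-mannosidase MAN2B1 at 0.60 ± 0.11. At the other end stood NPC1, the partner of NPC2 in cholesterol export, at -0.48.

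Markers of monocytes and macrophages, cells rich in lysosomes, lay on the same side. Of 17 measured markers 0 were called, 8 were higher and 0 lower at an unadjusted p under 0.05 (10.1% and 7.81% of all genes), and their median of 0.43 was the highest of the 31 lists. CD68, which is also in the lysosome list, was at 9.42, 9.01 and 9.12 at 6 h and at 10.26, 9.93 and 10.76 at 18 h (1.13 ± 0.21, adjusted p = 0.0687). LAPTM5 (0.91 ± 0.20), FCER1G (0.94 ± 0.25) and TYROBP (0.95 ± 0.25) did not overlap either, while the complement genes C1QA (-0.13 ± 0.35), C1QB (0.04 ± 0.27) and C1QC (0.05 ± 0.31) were level within their error. The mean level of the markers was 8.47, 8.35 and 8.60 at 6 h and 9.17, 8.62 and 9.20 at 18 h, so that 18 h replicate 2 lay next to the 6 h arrays. At 0 h it was 7.85 to 7.97 on 3 arrays and 9.26 on replicate 3. Their part in the lysosomal and immune differences was not tested.

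Of the interferon response and antigen presentation list, IFI30 was the 1 called of 44 measured members. At an unadjusted p under 0.05, 5 were higher and 1 lower (10.1% and 7.81% of all genes), and the median was 0.21. IFI30 was at 9.92, 9.79 and 9.96 at 6 h and at 11.27, 10.65 and 11.31 at 18 h, again lowest on 18 h replicate 2 among the late arrays. IRF3, which switches on interferon genes, was at 0.54 ± 0.10 (adjusted p = 0.0633), USP18 at 0.82 ± 0.25 with overlap and IFIT5 at 0.33 ± 0.10. The 1 lower member was IFI27, at -1.12 ± 0.38 without overlap (adjusted p = 0.238). Lymphocyte markers had 0 of 22 called, 3 higher and 0 lower at an unadjusted p under 0.05 (10.1% and 7.81% of all genes) and a median of 0.20. CD247, a chain of the T cell receptor complex, was at 0.48 ± 0.16 without overlap. The pore-forming PRF1 (0.46 ± 0.16), CD3D (0.37 ± 0.15) and CD8A (0.80 ± 0.36) overlapped, PRF1 and CD3D with 6 h means of 6.56. CD3E was at 0.00, and below 0 lay NKG7 (-0.09), MS4A1 (-0.07), CD28 (-0.03) and NCR1 (-0.01). Neutrophil markers had 0 of 10 called, 2 higher and 0 lower and a median of 0.08. S100A12, an alarmin, was at 1.11 ± 0.32, CXCR1 at 0.71 ± 0.32, PGLYRP1 at 0.34 ± 0.13 and LTF at 0.20 ± 0.15. The last 3 had low levels, with 6 h means of 5.39, 4.79 and 5.26. On the other side of 0 were S100A8 (-0.14), S100A9 (-0.09), BPI (-0.10) and MPO (-0.01), S100A8 with a 6 h mean of 12.54.

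Cytokines, chemokines and their feedback genes went both ways. Of 53 measured members 0 were called, 5 were higher and 9 lower at an unadjusted p under 0.05, and the median was -0.03. CXCL5, a chemokine that attracts neutrophils, was at 7.98, 6.03 and 6.06 at 6 h and at 8.73, 9.22 and 9.13 at 18 h. This was the largest difference among all list members (2.34 ± 0.49), but 6 h replicate 1 lay about 2 units above the others of its time and it was not called (adjusted p = 0.0902). TNFRSF1B, a receptor of tumour necrosis factor, was at 0.69 ± 0.12 (adjusted p = 0.0595), CCL4, a chemokine of macrophages and T cells, at -0.61 ± 0.13 and IL18 at -1.28 ± 0.29. CCL2, which attracts monocytes, stood at 12.91 ± 0.20 and 12.72 ± 0.63 (-0.19 ± 0.29), and PTGS2, the inducible cyclooxygenase, at -0.35 ± 0.36.

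**Figure D4:**
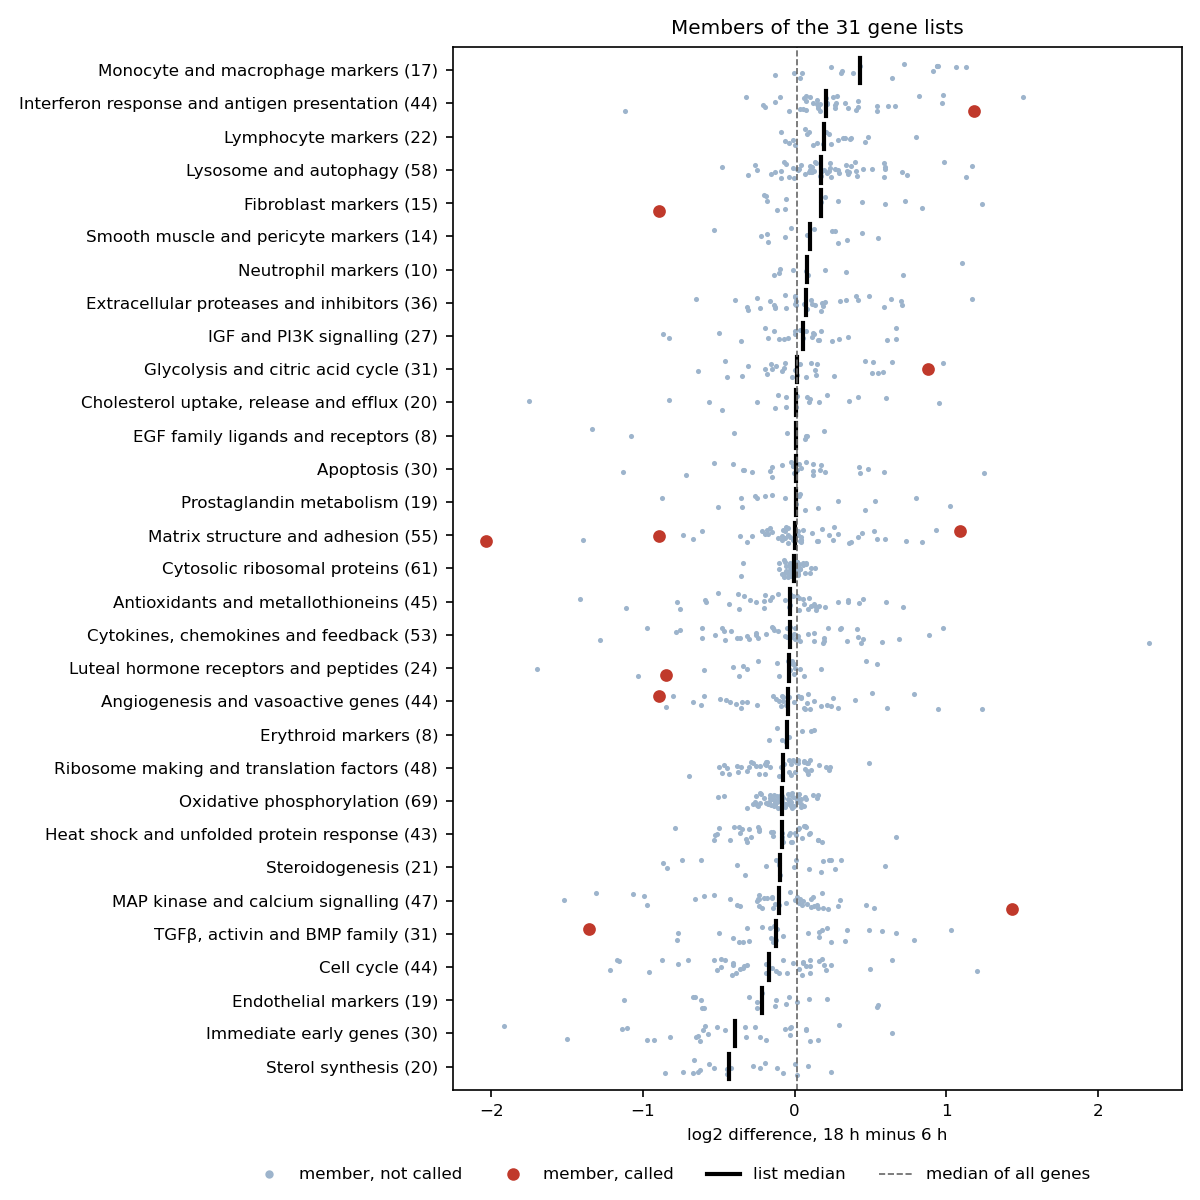
Log2 difference (horizontal axis, 18 h minus 6 h) of every measured member of the 31 gene lists (rows, with the number measured). Small points are members that were not called, large points those that were, black bars list medians and the dashed line the median of all genes (0.02). Medians run from -0.43 for sterol synthesis to 0.43 for monocyte and macrophage markers, and called members are few in every row.

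Matrix genes included rises and falls. Of 55 measured members of the matrix structure and adhesion list 3 were called, LGALS3 higher and COL13A1 and OGN lower, 7 were higher and 5 lower at an unadjusted p under 0.05, and the median was 0.01 (0.0050). LGALS3, which binds galactosides and is abundant in macrophages, was at 12.96, 12.71 and 12.62 at 6 h and at 13.82, 13.69 and 14.05 at 18 h. The later arrays were all higher by more than 0.7 (1.09 ± 0.13, adjusted p = 0.0244), and it was called in 1 of 6 fits without 1 array. OGN, osteoglycin, a small leucine-rich proteoglycan, was at 9.63, 9.22 and 9.54 against 8.74, 8.49 and 8.48 (-0.89 ± 0.14, adjusted p = 0.0493). LAMB1, a laminin chain, was at 0.52 ± 0.09 (adjusted p = 0.061), and CD44, the hyaluronan receptor, at 10.49, 10.39 and 10.31 at 6 h and at 11.59, 10.18 and 11.62 at 18 h. On 18 h replicate 2 CD44 was below the 6 h arrays, while the mean of the macrophage markers was just above theirs. The difference of CD44 was 0.74 ± 0.36 (adjusted p = 0.401).

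Extracellular proteases and inhibitors had 0 of 36 called, 6 higher and 3 lower at an unadjusted p under 0.05 and a median of 0.07. ADAMTS1, a protease of proteoglycans, was at -0.65 ± 0.12 (adjusted p = 0.0612), the membrane-bound collagenase MMP14 at 0.70 ± 0.13 and the gelatinase MMP9 at 0.49 ± 0.11. TIMP1, an inhibitor of metalloproteinases near the top of the scale, stood at 14.95 ± 0.07 and 15.14 ± 0.03 (0.19 ± 0.09, adjusted p = 0.393). Fibroblast markers had 1 of 15 called (OGN, lower), 4 higher and 1 lower at an unadjusted p under 0.05 and a median of 0.17, with POSTN (0.84 ± 0.25), LUM (0.60 ± 0.19) and DCN (0.45 ± 0.14) higher without overlap. The called gene thus differed in direction from these 3 members.

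In the TGFβ, activin and BMP family, BAMBI was the 1 called of 31 measured members. BAMBI was at 9.55, 9.89 and 10.31 at 6 h and at 8.39, 8.66 and 8.63 at 18 h, with no overlap (adjusted p = 0.0385). ID1 and ID2, inhibitors of DNA binding that BMP signals induce, were at -0.77 ± 0.17 and -0.77 ± 0.13, and BMPR1B, a BMP receptor, at 0.67 ± 0.12, with adjusted p of 0.106, 0.0598 and 0.0624. INHBA, the activin A subunit, was at 13.48, 13.17 and 11.78 at 6 h and at 13.04, 11.56 and 12.74 at 18 h, which overlapped (-0.37 ± 0.51). The list had 4 members higher and 5 lower at an unadjusted p under 0.05 and a median of -0.13 (-0.1250).

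Of the EGF family list 0 of 8 measured members were called, 2 were lower and 0 higher at an unadjusted p under 0.05, and the median was 0.01. AREG, a ligand of the EGF receptor, was at 12.51, 12.05 and 12.79 at 6 h and at 11.57, 11.76 and 10.79 at 18 h, and averaged 5.68 at 0 h. It was lower without overlap but not called (-1.08 ± 0.28, adjusted p = 0.14). NRG1, a ligand of ERBB receptors, was at -1.34 ± 0.44 with overlap, because 6 h replicate 3 was low (8.10 against 9.59 and 9.66). ERBB3 was at 0.19 ± 0.11 and ERRFI1, an inhibitor of the receptors, at -0.40 ± 0.45.

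Energy metabolism showed 1 called gene. LDHA, the lactate dehydrogenase subunit that favours lactate, was at 12.72, 12.53 and 12.65 at 6 h and at 13.64, 13.51 and 13.39 at 18 h, a rise of 1.84-fold (0.88 ± 0.10, adjusted p = 0.022) in the 1 of 3 probe sets with the highest signal. Its other probe sets were not called, the lowest at -0.17, and with the gene as the mean of its probe sets the difference was 0.20 and not called, so the rise rests on 1 probe set. Of 31 measured genes of glycolysis and the citric acid cycle 7 were higher and 5 lower at an unadjusted p under 0.05 and the median was 0.01. PKM, pyruvate kinase, was at 0.98 ± 0.24 and GPI, glucose phosphate isomerase, at 0.58 ± 0.14 (adjusted p = 0.132 for both), and PDK4, which blocks pyruvate entry into the cycle, at -0.64 ± 0.15. Of 69 measured genes of oxidative phosphorylation 0 were called, 5 were lower and 0 higher at an unadjusted p under 0.05, and the median was -0.08. The complex I subunits NDUFS3 (-0.47 ± 0.12) and NDUFA6 (-0.51 ± 0.15) and the complex III subunits UQCRFS1 (-0.28 ± 0.10) and UQCRQ (-0.31 ± 0.12) were those 4 with the lowest p.

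Genes of vessels included 1 call. In the angiogenesis and vasoactive list EPAS1, the hypoxia-inducible factor HIF-2α, was the 1 called of 44 measured members. It was at 11.85, 12.01 and 11.79 at 6 h and at 11.09, 10.76 and 11.12 at 18 h, and fell by 0.89 on the log2 scale (SE 0.13, adjusted p = 0.0397). Its other probe set was called lower too (-0.72, adjusted p = 0.0385). Its relative HIF1A was at -0.39 ± 0.10, TEK, the angiopoietin receptor, at -0.60 ± 0.13 and VEGFA at -0.67 ± 0.32 with overlap. EDN1, the vasoconstrictor endothelin 1, stood against this at 10.58, 10.14 and 10.19 at 6 h and at 10.99, 11.23 and 11.06 at 18 h (0.79 ± 0.14, adjusted p = 0.0612). The list had 5 members higher and 7 lower at an unadjusted p under 0.05 and a median of -0.05.

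Endothelial markers had 0 of 19 called, 2 higher and 6 lower at an unadjusted p under 0.05, and a median of -0.22. Their mean level was 9.32, 9.41 and 9.22 at 6 h and 9.11, 9.02 and 9.16 at 18 h, without overlap, and 8.77 to 9.08 at 0 h. PLVAP, a protein of endothelial diaphragms, was at 8.10, 8.30 and 8.37 against 7.62, 7.52 and 7.67 (-0.65 ± 0.11, adjusted p = 0.0552), ROBO4 at -0.67 ± 0.13 and MMRN1, multimerin, at -1.13 ± 0.22, while VWF had the highest value (0.55). Their part in the vessel genes was not tested. Smooth muscle and pericyte markers had 0 of 14 called, 1 higher and 1 lower at an unadjusted p under 0.05 and a median of 0.10, with SMTN at -0.53 ± 0.18, CALD1 at 0.44 ± 0.18, DES at 0.35 ± 0.15 and PDGFRB at 0.28 ± 0.13. Erythroid markers had 0 of 8 called and 0 in either direction at an unadjusted p under 0.05. Their median was -0.05 (ALAS2, AHSP, HBA and EPB42 between -0.17 and 0.11). Their levels were low, with 6 h means from 4.35 (SLC4A1) to 7.27 (HBM), so they say little about blood in the tissue.

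**Figure D5:**
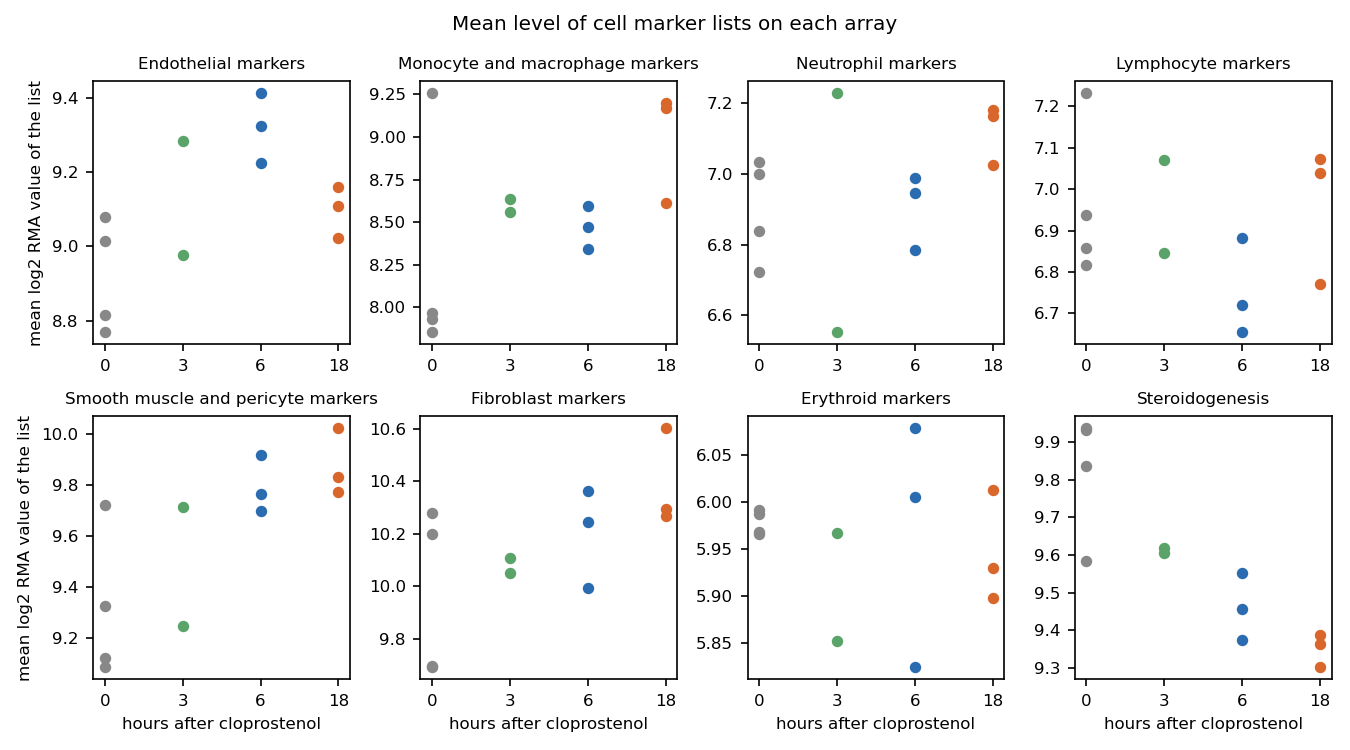
Mean log2 RMA value (vertical axes, which differ between panels) of the members of 7 marker lists and of the steroidogenesis list by array for all 12 arrays, against hours after cloprostenol (not to scale). Points are arrays. Endothelial markers lay at 9.22 to 9.41 at 6 h and 9.02 to 9.16 at 18 h, macrophage markers at 8.35 to 8.60 and 8.62 to 9.20, and 1 of the 4 untreated arrays was at 9.26 for macrophage markers.

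Regulators of cell death and the cell cycle were not called at their chosen probe sets. Of 30 measured apoptosis genes 3 were higher and 2 lower at an unadjusted p under 0.05, and the median was 0.01. The survival genes MCL1 (-0.72 ± 0.12, adjusted p = 0.0586) and CFLAR (-1.13 ± 0.20, adjusted p = 0.0608) were lower without overlap, and the mitophagy receptors BNIP3L (0.59 ± 0.10, adjusted p = 0.0593) and BNIP3 (1.25 ± 0.29, adjusted p = 0.11) higher without overlap. CFLAR was called, lower, at another of its probe sets (-1.48 ± 0.16, adjusted p = 0.0185). Of 44 measured cell cycle genes 3 were higher and 8 lower at an unadjusted p under 0.05, and the median was -0.17. CDKN1A, the inhibitor p21, was at 11.39, 11.74 and 11.25 at 6 h and at 10.35, 9.83 and 10.54 at 18 h (-1.22 ± 0.20, adjusted p = 0.0586). MCM7, a subunit of the replicative helicase, was at 0.50 ± 0.09, PLK2, a polo-like kinase, at -0.48 ± 0.09 and CDKN2B, another inhibitor, at 0.64 ± 0.16.

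The 3 remaining lists had 0 members called. Of 19 measured genes of prostaglandin metabolism 4 were higher and 2 lower at an unadjusted p under 0.05, with a median of 0.01. SLCO2A1, the prostaglandin transporter, was at -0.87 ± 0.14 (adjusted p = 0.0579), ALOX12 at 0.46 ± 0.14, ALOX5AP, which serves leukotriene synthesis, at 1.02 ± 0.33 and AKR1B1, which has PGF synthase activity, at 0.53 ± 0.18. Of 45 measured antioxidant and metallothionein genes 5 were higher and 7 lower, with a median of -0.03. FTL, the ferritin light chain, was at 0.60 ± 0.10 (adjusted p = 0.0595), ALDH1A1, which makes retinoic acid, at -1.11 ± 0.20 (adjusted p = 0.0664), the glutathione transferase MGST1 at -0.58 ± 0.12 and GCLM, of glutathione synthesis, at -0.59 ± 0.14. Of 27 measured genes of IGF and PI3K signalling 1 was higher and 2 lower, with a median of 0.06. PIK3R3 was at -0.87 ± 0.17 (adjusted p = 0.0712), IGFBP6 at -0.83 ± 0.21, FOXO4 at 0.35 ± 0.09 and IGF2 at -0.50 ± 0.22, and IGF1 stood at 8.58 at both times (0.00 ± 0.09).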

How the data were processed

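The log2 values are those the authors deposited, and the labels name robust multichip averaging (RMA), a procedure of background correction, quantile normalization and summary over probes. Its software, its chip definition and its set of arrays are not given in the sources used, nor are the methods of this series. Scanner files were not used here. RMA narrows differences at low signal, buffalo transcripts that differ from the cattle probes bind less, and levels of different probe sets were not compared.

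Of 24128 probe sets, 112 control probe sets were left out. In R 4.3.3, limma 3.58.1 (lmFit and eBayes at default settings) compared 3 arrays at 18 h with 3 at 6 h over 24016 probe sets, two-sided, with Benjamini-Hochberg adjustment over all of them and a call at an adjusted p under 0.05. Replicates are animals per the labels, and their number limits the precision. Array medians lay between 7.10 and 7.16. The platform annotation gave 1 symbol for 13292 probe sets, several for 86 and none for 10638, and each gene was read at its probe set with the highest mean over the 12 arrays.

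The comparison and the 31 gene lists were chosen with earlier results of these data known. Lists are described by counts and medians only. Genes were named by rule: among called genes without overlap the 12 that rose most and the 12 that fell most, passing over uncharacterised loci (symbols that start with LOC, MGC or BT. or hold orf), up to 4 members of each list with the lowest p, and genes fixed by name (PTGFR, STAR, CYP11A1, HSD3B1, LHCGR, NR5A1, NR5A2, VEGFA, AREG, NRG1, INHBA, ATF3, FOS, EGR1, NR4A1, HSPH1, CD44, CCL2, PTGS2, IGF1 and TIMP1, while 1 more is not reported here). In data simulated for this comparison, 200 probe sets among 24016 were changed. The fit recovered 18.8% of those changed by 0.5, 73.4% by 1 and 94% by 2 log2 units, and 5.39% of calls were false. Noise was drawn independently for each probe set, so deviations that many probe sets of 1 animal share were not simulated. Alternatives were a replicate block, all 12 or the 8 treated arrays in the fit, leaving out the dimmest 40% of probe sets, a repeated quantile normalization, median centring, trend and robust moderation, other ways to read genes, and each array left out. A description of promoter motifs was planned and not run.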

Additional observations from a re-analysis of the deposited data

Results flagged for a closer look

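Among the 4 untreated arrays, 1 counted as apart from the other 3 by its gap to the nearest against the range of the group. This held in 21 of 177 tested levels of genes named here (11.9%) and in 3 of 31 list means (9.68%). About 1 in 20 groups of this size pass that limit by chance, and 0 h replicate 3 was the array apart in all 3 list means and in most of the genes, 13 times above the others and 3 times below. Its list means were 9.26 for monocyte and macrophage markers (7.85 to 7.97 on the others), 10.79 for interferon response and antigen presentation (9.23 to 9.31) and 8.55 for cytokines, chemokines and feedback (7.49 to 7.58).

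Among immune genes, replicate 3 was above the others at 12.89 for CCL2 (9.85 to 10.13 on the others), 10.12 for CCL4 (7.68 to 8.10), 11.13 for IL18 (10.16 to 10.24), 11.27 for C1QA (8.92 to 9.20) and 9.65 for C1QC (7.74 to 8.04). It was so too at 9.98 for FCER1G (7.79 to 8.03), 11.09 for LAPTM5 (9.71 to 9.90), 8.70 for TYROBP (7.37 to 7.57), 7.51 for PRF1 (6.75 to 6.88) and 12.05 for IFIT5 (11.01 to 11.17). The other levels of replicate 3 above the rest were 11.56 for POSTN (10.16 to 10.34), 11.15 for FBL (10.88 to 10.92) and 5.90 for CA8 at its called probe set (5.30 to 5.35). Replicate 3 was below the others at 9.19 for OGN (10.63 to 10.93), 9.62 for HSPA2 (10.12 to 10.18) and 7.79 for BAMBI (8.53 to 8.62).

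Of the other untreated arrays, replicate 2 was at 11.20 for CCN1 (10.60 to 10.70), 11.26 for AKR1B1 (11.04 to 11.05) and 10.50 for CALD1 (10.80 to 10.85), replicate 1 at 10.86 for LAMB1 (10.99 on each of the others) and replicate 4 at 5.96 for RNF39 (6.18 to 6.22). The untreated arrays took no part in the test of 18 h against 6 h.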

How the results depend on the processing

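Leaving out 1 array moved the number of called probe sets more than another scaling did. All 116 called probe sets kept their direction in each alternative that tested them. Leaving out an array, the block and the added arrays could not reverse it, because their 6 h and 18 h arrays did not overlap. The counts moved. The replicate numbers do not pair the animals (correlations of same-numbered deviations 0.14, 0.03 and -0.02), and with them as a replicate block 66 probe sets were called (27 higher, 39 lower, 43 shared), 29 genes (14 and 15) and 3 list members. With the 8 treated arrays in the fit 16 probe sets were called (11 and 5), 13 of them at least 2-fold (11 and 2), with 9 genes (6 and 3) and 2 list members. With all 12 arrays 108 were called, 46 of them lower and 23 lower by at least 2-fold. The share of calls that were higher was 37.1%, and 57.4% with 12 and 68.8% with 8 arrays in the fit. Of 9 called list members the count was 14 without the dimmest 40% of probe sets and 14 with trend and robust moderation. With each array left out in turn the counts ran from 0 to 185 probe sets (higher 0 to 86, lower 0 to 99), 0 to 140 at least 2-fold (higher 0 to 62, lower 0 to 78), 0 to 93 genes (higher 0 to 47, lower 0 to 46) and 0 to 19 list members. The other scalings, the filter and the other ways to read genes left the counts of probe sets and genes within 1.5 times. Median differences of 14 lists kept their sign in all 15 alternatives, among them sterol synthesis, immediate early genes, lysosome, macrophage and endothelial markers. The block, the added arrays, the moderation and an adjustment over genes leave the differences as they are, so for these the sign was fixed. The other 17 lists changed sign at least once, all with medians between -0.09 and 0.17. The cause of these shifts was not tested, and changes of 0.5 log2 units were rarely recovered in simulation.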

Other observations

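Besides the 57 genes, 41 called probe sets carried no gene symbol, and among them were both the largest rise (2.11) and the largest fall (-2.76) of all. A further 6 genes were called only at a probe set other than the brightest, and are named because they are few. DPP4, a peptidase of the cell surface that trims chemokines and hormones, rose there by 1.05 and GPRC5B, an orphan receptor, by 1.32. CD320, the receptor that takes up vitamin B12 bound to transcobalamin, stood at -1.89, CA8, a protein related to carbonic anhydrases, at -1.73, CFLAR at -1.48 and TSPYL1 at -0.56, all past the threshold. Of the 20 called genes with several probe sets, 7 were called at all of them and 17 had the same sign at all of them.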
